A study of Mus musculus with 6 samples.

Results

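Chemokines are small secreted proteins that draw leukocytes along a gradient, and their receptors are G protein-coupled receptors carried mainly by those cells. The genes described here are the chemokine ligands and receptors of the mouse, chosen by name: symbols that begin with Ccl, Cxcl, Ccr, Cxcr or Ackr followed by a number, with Cx3cl1, Cx3cr1, Xcl1, Xcr1, Ccrl2, Pf4 and Ppbp. The rule found 62 genes, 39 ligands and 23 receptors, among 21878 in the deposited tables. RNA from Achilles tendon had been sequenced in 3 libraries after Achilles tendon amputation, titled HO and called cut 1 to 3 here, and in 3 libraries after a sham operation, called sham 1 to 3. The title places the work in heterotopic ossification after trauma, with KLF2, PPARγ and mitochondria as its subject; such ossification is bone that forms outside the skeleton. The labels give no strain, sex, age, genotype or time after surgery, and none names an animal, so each p-value measures the spread of these libraries alone, which may be technical.

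Inflammatory chemokines are made on demand at a wound and call in monocytes, neutrophils or lymphocytes, while homeostatic chemokines are made steadily by stromal and endothelial cells and keep leukocytes in place or on their routes. CC ligands act mostly on monocytes, lymphocytes and eosinophils. CXC ligands with the glutamate-leucine-arginine (ELR) motif act on neutrophils through CXCR2, and those induced by interferon act on T cells through CXCR3. Atypical receptors bind chemokines without the usual G protein signal and remove or move them. In an injured tendon or muscle, CCR2 is known for the recruitment of monocytes and CX3CR1 for the macrophages that follow.

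Promoter stretches are shown for the members whose control by inflammatory signals is best known and for Ccl9, Ccl8 and Ccl12. The latter were picked from the CC ligands on chromosome 11 that were higher in cut tendon. Each stretch is the 120 bases before the RefSeq transcript start in GRCm38.p6, read 5′ to 3′ on the strand of the gene. Capitals mark TATAAA, the TATA box, and a form of the binding sequence of the inflammatory factor NF-κB (GGG, then any 2 bases, then TTTCC), each on either strand.
Cxcl1, chr5:90891125-90891244, plus strand: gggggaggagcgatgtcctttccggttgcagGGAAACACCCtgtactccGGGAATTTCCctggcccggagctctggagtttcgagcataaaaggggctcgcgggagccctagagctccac
Cxcl2, chr5:90903779-90903898, plus strand: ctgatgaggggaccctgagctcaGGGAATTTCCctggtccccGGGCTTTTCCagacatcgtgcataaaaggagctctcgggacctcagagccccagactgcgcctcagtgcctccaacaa
Cxcl3, chr5:90785981-90786100, plus strand: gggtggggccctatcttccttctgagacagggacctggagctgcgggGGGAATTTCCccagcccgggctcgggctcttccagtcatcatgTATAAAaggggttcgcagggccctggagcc
Ccl9, chr11:83578637-83578756, minus strand: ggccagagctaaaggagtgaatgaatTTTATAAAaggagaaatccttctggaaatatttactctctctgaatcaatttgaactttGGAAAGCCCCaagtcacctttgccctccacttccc
Ccl8, chr11:82115065-82115184, plus strand: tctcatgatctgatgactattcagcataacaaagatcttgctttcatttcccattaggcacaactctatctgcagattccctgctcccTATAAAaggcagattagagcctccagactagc
Ccl12, chr11:82101725-82101844, plus strand: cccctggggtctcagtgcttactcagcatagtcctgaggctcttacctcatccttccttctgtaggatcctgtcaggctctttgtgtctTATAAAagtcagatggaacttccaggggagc

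The Cxcl1, Cxcl2 and Cxcl3 stretches, which belong to neutrophil-attracting ELR ligands, all held the NF-κB letters, 2 copies each in Cxcl1 and Cxcl2 and 1 in Cxcl3. The first letter of a copy lay 89 and 71 bases before the start in Cxcl1, 97 and 78 in Cxcl2 and 73 in Cxcl3. Cxcl1 and Cxcl3 shared 84 of 120 bases in a global alignment with gaps, and Ccl8 and Ccl12 shared 71. Among pairs of a CXC with a CC ligand, Cxcl1 and Ccl9 shared the most, at 67, so the 71 is little above that level. Ccl8 and Ccl12 had no NF-κB letters in these stretches and a TATA box that began 32 and 31 bases before the start. Of the 62 members, 48 had a promoter in the RefSeq table. Ccl2, Ccl7, Cxcl5, Cxcl16 and Ccr7, all higher in cut tendon, were among the 14 without and could not be searched.

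In the 250 bases before the start, the NF-κB letters were found in 6 of these 48 members and in 10.5% of their 57 promoters, against 1.41% of 32851 promoters of the table. The 6 were Ccl20, Ccl9, Ccr3, Cxcl1, Cxcl2 and Cxcl3, of which Ccl9 alone rose, 2 did not pass the test and 3 had too few counts to be tested. TATAAA was in 15 members, and in 26.3% of their promoters against 12.4% of all promoters, and 4 of the 15 rose. The interferon-response letters (GAAA, any 2 bases, GAAA) were in Ccl19, Cxcl10 and Cxcl14, 5.26% of member promoters against 2.98%. The AP-1 letters TGANTCA were in 7 members, 12.3% of member promoters against 6.75%. The letters GAGGAAGT, a form of the binding sequence of the myeloid factor PU.1, were in Cxcr3 and Pf4, 3.51% of member promoters against 2.44%. Both strands were searched, the motifs do not contain one another, and the motifs were chosen after the expression values were known. A match describes letters in these windows and not a site in use.

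Chemokine receptors of monocytes and macrophages rose in cut tendon together with a set of CC ligands and Cxcl16. Cxcr6, Cxcr3 and Ccr7, receptors found on T cells, were also higher, but at low counts. Cx3cr1, Cxcr4, Ccr2 and Ccr1 stood 3.32 to 5.29 times above sham, and Ccl8 stood 7.36 times above it. Cxcl12, the most abundant member by count, and Cx3cl1 were near equal in both groups. The chemokine scavenger Ackr2 and the platelet ligand Ppbp fell. Of the 62 members, 41 had enough counts to be tested, and 18 were higher and 2 lower at a Benjamini-Hochberg adjusted p under 0.05 in edgeR's quasi-likelihood test. Over all 14561 tested genes, 32.7% passed by the same rule, 20.4% higher and 12.3% lower.

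Among the 26 tested ligands 10 were higher and 1 lower, and among the 15 tested receptors 8 were higher and 1 lower. The median log2 fold change was 1.18 over the 41 tested members, 0.97 over the ligands and 1.59 over the receptors, against -0.02 over all tested genes. The 3 cut libraries all lay above the 3 sham libraries in 22 tested members, where 28.7% of all tested genes did so, and all below in 3, where 26.1% did so; in either direction it was 54.8% of all tested genes. These counts are read with care, because 10 of the 41 passed the filter on low counts with fewer than 3 sham libraries above its level, and 5 of those 10 were higher. Those 5 were Ccl22, Ccr7, Cxcl5, Cxcr3 and Cxcr6, which entered the test through their cut libraries. Of the 30 members above that level in all 6 libraries, 13 were higher, 2 lower and 15 not past the test. Without cut 3 the counts over the tested members were 20 higher and 5 lower, and without sham 2 they were 8 and 0. Over all tested genes, 4212 were higher and 4392 lower without cut 3, and 1091 and 436 without sham 2. With all 6 libraries these were 2968 and 1789.

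**Figure D1:**
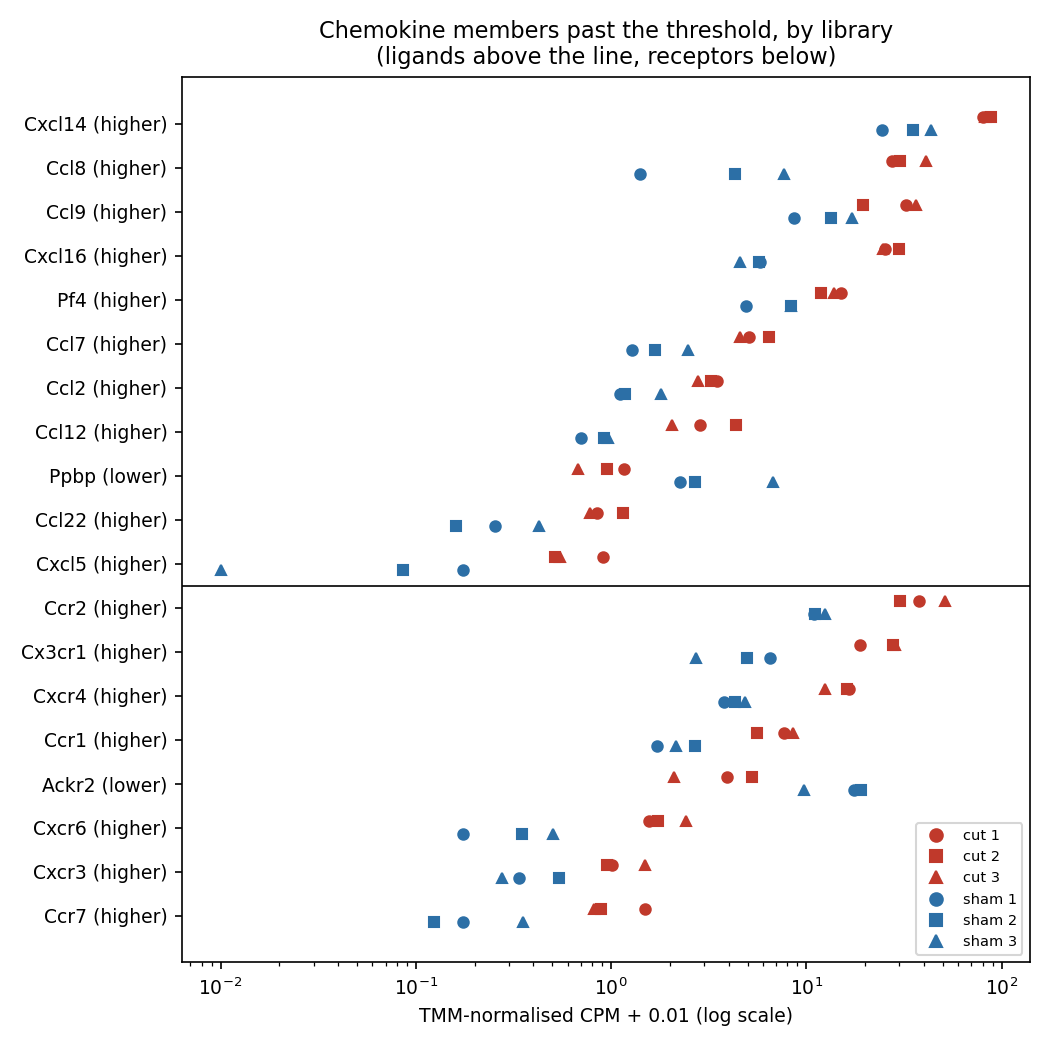
CPM (a gene's counts scaled to library size, normalised for composition by TMM; log scale, 0.01 added) of members past the threshold, with a point for each cut and sham library. Cut libraries lie to the left of sham libraries in Ppbp and Ackr2 and to the right in the other members drawn.

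The libraries also differed in total counts and in markers of tissue content. How far these differences belong to the injury response was not tested. Totals were 28410231 to 31346730 counts in cut and 23916839 to 27140226 in sham, so that 1 count was 0.0322 to 0.0337 CPM in cut and 0.0379 to 0.0409 CPM in sham after TMM normalisation. A list of 30 skeletal muscle genes took 1.73%, 0.567% and 16.5% of counts in cut 1 to 3 and 20.0% to 22.2% in sham, so that cut 3 held nearly as much muscle RNA as the sham libraries. The tendon markers Tnmd and Scx were present in every library, at 456 to 1014 and 22.6 to 67.9 CPM in cut and 44.5 to 78.2 and 8.09 to 16.3 CPM in sham. Of 12 macrophage markers 11 rose, and their summed level was 1282 to 1443 CPM in cut and 408 to 562 CPM in sham. Fewer cells of a type and less RNA per cell cannot be told apart in bulk tissue. The members took 0.073% to 0.0915% of all counts in cut libraries and 0.056% to 0.0593% in sham libraries.

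Among the CC chemokine receptors, Ccr1, Ccr2 and Ccr7 rose. Ccr2, the receptor for CCL2 and related ligands that marks inflammatory monocytes, stood at 37.6, 30.2 and 51.6 CPM in cut 1 to 3, against 11.0, 11.1 and 12.5 CPM in sham 1 to 3. Its log2 fold change was 1.79 ± 0.21 (SE, n = 3 per group; edgeR adjusted p = 0.00446). Every cut library was above every sham library, with cut 3 the highest.

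Ccr1, a receptor of monocytes and neutrophils, had 7.67, 5.57 and 8.52 CPM in cut and 1.72, 2.69 and 2.14 CPM in sham, a log2 fold change of 1.73 ± 0.26 (edgeR adjusted p = 0.00676). Ccr1 lies on chromosome 9 at 123962126 to 123968692 and Ccr2 at 124101918 to 124109140 of GRCm38.p6, and in neither gene did the groups overlap.

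Ccr7, which guides dendritic cells and naive T cells to lymph nodes, was scarce, at 0.805 to 1.48 CPM in cut and 0.114 to 0.344 CPM in sham. It rose by log2 2.32 ± 0.50 (edgeR adjusted p = 0.0179), but not past the threshold without cut 1 (2.0, adjusted p = 0.0611), sham 1 (2.19, 0.0678) or sham 2 (2.01, 0.0729). A further 6 CC receptors were too low to test. Ccr3, the eotaxin receptor of eosinophils, reached 2.05 CPM in cut 3, with 0.202 and 0.709 CPM in the other cut libraries and at most 0.163 CPM in sham.

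Of the other signalling receptors, Cx3cr1, Cxcr4, Cxcr6 and Cxcr3 rose. Cx3cr1, the fractalkine receptor of resident macrophages and patrolling monocytes, stood at 18.8, 27.8 and 28.3 CPM in cut 1 to 3, against 6.50, 4.96 and 2.71 CPM in sham 1 to 3, a log2 fold change of 2.40 ± 0.35 (edgeR adjusted p = 0.0063). Cxcr4, the receptor for CXCL12 on most leukocytes and on progenitor cells, stood at 16.5, 16.2 and 12.5 CPM in cut and 3.76, 4.28 and 4.85 CPM in sham, a log2 fold change of 1.81 ± 0.18 (edgeR adjusted p = 0.00348). Neither gene's groups overlapped, and both were called under each of the 16 alternatives tried.

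Cxcr6, the CXCL16 receptor of activated and tissue-resident T cells, had 1.55, 1.72 and 2.42 CPM in cut and 0.163, 0.341 and 0.496 CPM in sham. It rose by log2 2.48 ± 0.43 (edgeR adjusted p = 0.00987), and narrowly missed the threshold without sham 2 (2.48, adjusted p = 0.0519). Cxcr3, the receptor of effector T cells for the interferon-induced ligands, rose by log2 1.59 ± 0.38 (edgeR adjusted p = 0.0246), with 0.945 to 1.48 CPM in cut and 0.267 to 0.530 CPM in sham. It was not called without cut 1 (1.68, adjusted p = 0.0623), sham 1 (1.5, 0.0840), sham 2 (1.91, 0.0532) or sham 3 (1.36, 0.0920). Of 8 tested T cell markers 3 were higher, Cd3d, Cd3e and Cd4, and the list summed to 17.1, 13.4 and 26.5 CPM in cut and 7.31, 8.44 and 8.02 CPM in sham. Without Cd4 it summed to 7.74, 7.66 and 15.2 CPM in cut and 6.66, 7.87 and 7.60 CPM in sham, so that cut 1 and 2 lay within the range of sham. Their part in the result was not tested.

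Cxcr2, the ELR ligand receptor of neutrophils, had 0.645, 0.202 and 0.503 CPM in cut and 0, 0.492 and 0.535 CPM in sham, and Cxcr1 had at most 0.0645 CPM in any library. Xcr1, the receptor of cross-presenting dendritic cells, had 0.387 to 0.872 CPM in cut and 0.492 to 0.535 CPM in sham, with a log2 fold change of 0.40 (95% interval -0.54 to 1.35). Cxcr5, which places B cells in follicles, had at most 0.191 CPM in any library. In these receptors the groups overlapped or the counts were too few for a test.

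**Figure D2:**
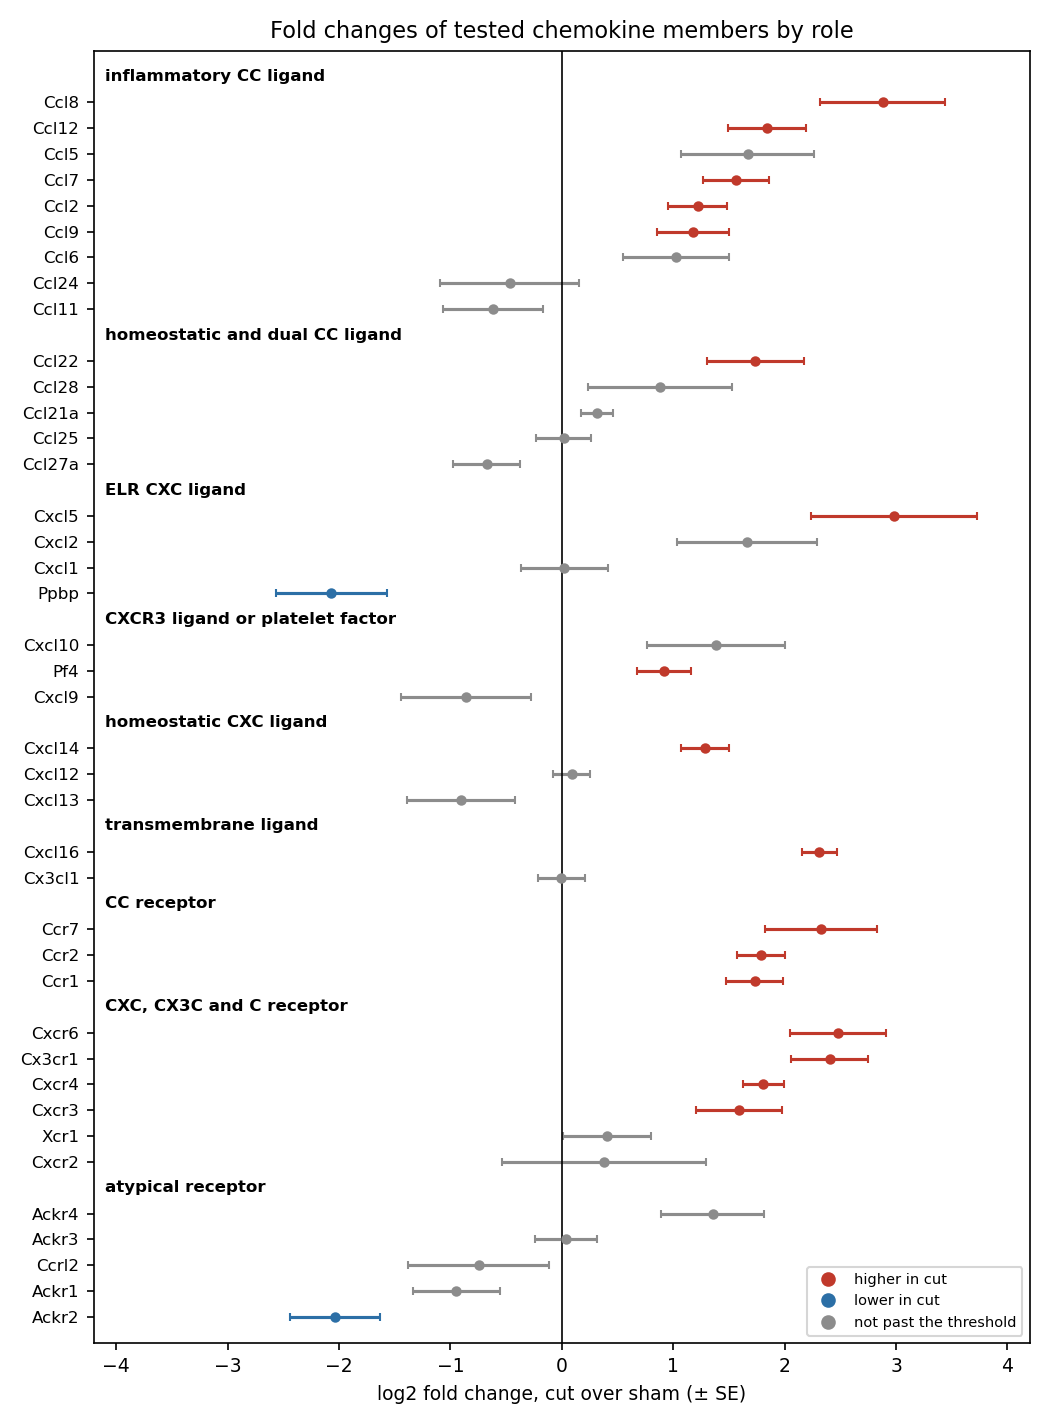
Log2 fold change of cut over sham (horizontal axis, point ± SE) for tested members by role, coloured by the outcome of edgeR's test. Ccr1, Ccr2 and Ccr7 lie at 1.73 or above, while the atypical receptors spread from -2.04 to 1.35.

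Of the 5 atypical receptors, 1 was lower and 4 did not pass the test. Ackr2, which binds and degrades inflammatory CC ligands on lymphatic endothelium, stood at 3.90, 5.26 and 2.08 CPM in cut 1 to 3, against 17.5, 19.0 and 9.74 CPM in sham 1 to 3. It fell by 2.04 ± 0.40 on the log2 scale, so that sham was 4.11 times higher (edgeR adjusted p = 0.0139). The groups did not overlap. It was not called without cut 1 (-2.06, adjusted p = 0.0518) or sham 2 (-1.89, 0.0563). Ackr2 lies on chromosome 9 at 121898355 to 121911075.

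Ackr1, which carries chemokines across venous endothelium, had 11.8, 3.91 and 8.99 CPM in cut and 14.5, 19.1 and 14.1 CPM in sham. Every cut library was below every sham library, but the log2 fold change of -0.95 ± 0.39 did not pass the threshold (edgeR adjusted p = 0.102). Part of an Ackr1 exon overlaps Cadm3 on the same strand in the annotation, so reads of these genes may be shared. The 8 blood endothelial markers summed to 509 to 791 CPM in cut and 995 to 1153 CPM in sham. Of these, 4 were lower and 4 did not pass the test. The 6 lymphatic markers summed to 232 to 284 CPM in cut and 289 to 324 CPM in sham. They did not move as 1, with 2 lower, 1 higher and 3 not past the test. The part of the endothelial markers in the values of Ackr1 and Ackr2 was not tested.

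Ackr3, the scavenger of CXCL12, was the most abundant receptor, at 58.8, 68.8 and 32.5 CPM in cut and 53.2, 57.6 and 45.1 CPM in sham. Its log2 fold change was 0.04, with a 95% interval of -0.63 to 0.71, and the groups overlapped. Ackr4, the scavenger of CCL19, CCL21 and CCL25, had 11.1, 10.3 and 3.52 CPM in cut and 2.66, 4.35 and 2.71 CPM in sham. Only cut 3 lay within the sham range, and the log2 fold change of 1.35 ± 0.46 did not pass the threshold (edgeR adjusted p = 0.064). It passed without cut 3 (1.72, adjusted p = 0.000691) and in DESeq2's Wald test (1.36, 0.0174), while with the muscle covariate it was 0.14 (edgeR adjusted p = 0.836). Ccrl2, a chemerin-binding receptor, had 1.71 and 1.01 CPM in cut 1 and 2, 6.31 CPM in cut 3, and 4.70 to 5.35 CPM in sham. Without cut 3 it was lower (log2 -1.89, adjusted p = 0.000986), against -0.75 ± 0.63 with all libraries (edgeR adjusted p = 0.377).

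Among the inflammatory CC ligands, 5 of 9 tested were higher and none was lower in edgeR's test. Ccl8, a monocyte chemoattractant protein that in mice acts through CCR8, had 27.6, 30.0 and 41.2 CPM in cut 1 to 3 and 1.39, 4.32 and 7.67 CPM in sham 1 to 3. Its log2 fold change was 2.88 ± 0.56 (edgeR adjusted p = 0.0135), not called without sham 2 (2.84, adjusted p = 0.0633). Ccr8 itself was listed at 0.0322 to 0.0671 CPM in cut and 0.0757 to 0.204 CPM in sham, too few counts to test.

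The CCR2 ligands rose by smaller steps at low levels. Ccl7 had 5.06, 6.41 and 4.56 CPM in cut and 1.27, 1.67 and 2.48 CPM in sham, a log2 fold change of 1.56 ± 0.30 (edgeR adjusted p = 0.0125). Ccl12 had 2.84, 4.35 and 2.05 CPM in cut and 0.695, 0.909 and 0.954 CPM in sham, a change of 1.84 ± 0.35 (edgeR adjusted p = 0.0125). For both genes the groups did not overlap, and the call was lost without sham 2, at 1.49 (adjusted p = 0.0606) for Ccl7 and 1.87 (0.0548) for Ccl12.

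Ccl2, the best known monocyte attractant, had 3.48, 3.24 and 2.78 CPM in cut and 1.10, 1.17 and 1.79 CPM in sham, a rise of log2 1.22 ± 0.26 (edgeR adjusted p = 0.0179). Although its groups did not overlap, it was not called without cut 1 (1.15, adjusted p = 0.0648), cut 2 (1.21, 0.0507), sham 1 (1.09, 0.0636) or sham 2 (1.10, 0.0807). In edgeR fits with muscle content as a covariate, Ccl2 (1.07, adjusted p = 0.0954), Ccl7 (1.29, 0.0503) and Ccl12 (1.15, 0.0735) were not called.

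Ccl9 and Ccl6 are rodent CCR1 ligands made by macrophages. Ccl9 had 32.5, 19.5 and 36.6 CPM in cut and 8.62, 13.4 and 17.1 CPM in sham, a log2 fold change of 1.18 ± 0.32 (edgeR adjusted p = 0.0353). Its groups did not overlap, but the call was lost without cut 1 (1.11, adjusted p = 0.1004), sham 1 (0.95, 0.0889), sham 2 (1.18, 0.109) or sham 3 (1.39, 0.0581). Ccl6 had 32.3, 13.7 and 45.5 CPM in cut and 9.07, 15.7 and 20.2 CPM in sham, a change of 1.02 ± 0.48 that did not pass the threshold (edgeR adjusted p = 0.137). Its cut 2 value lay within the sham range, and it was called without cut 2 (1.37, adjusted p = 0.0448) and with the muscle covariate (1.85, 0.0197).

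Ccl11, eotaxin, went the other way in value, with 11.2, 4.45 and 14.3 CPM in cut and 12.5, 11.8 and 21.5 CPM in sham. The groups overlapped and the log2 fold change of -0.62 had a 95% interval of -1.69 to 0.46. The second eotaxin, Ccl24, had 0.574 to 2.75 CPM in cut and 1.39 to 3.55 CPM in sham (log2 -0.47, interval -1.97 to 1.03). Ccl5, a ligand made by T cells, had 0.844 to 1.74 CPM in cut and 0.114 to 0.613 CPM in sham, without overlap, at 1.67 ± 0.59 (edgeR adjusted p = 0.0722). Ccl5 was called with the muscle covariate (2.28, edgeR adjusted p = 0.0485), in DESeq2's Wald test (1.67, 0.0282) and by limma on log2(FPKM + 1) (0.92, 0.0377). The macrophage inflammatory proteins Ccl3 and Ccl4 did not exceed 0.94 and 0.604 CPM in any library.

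**Figure D3:**
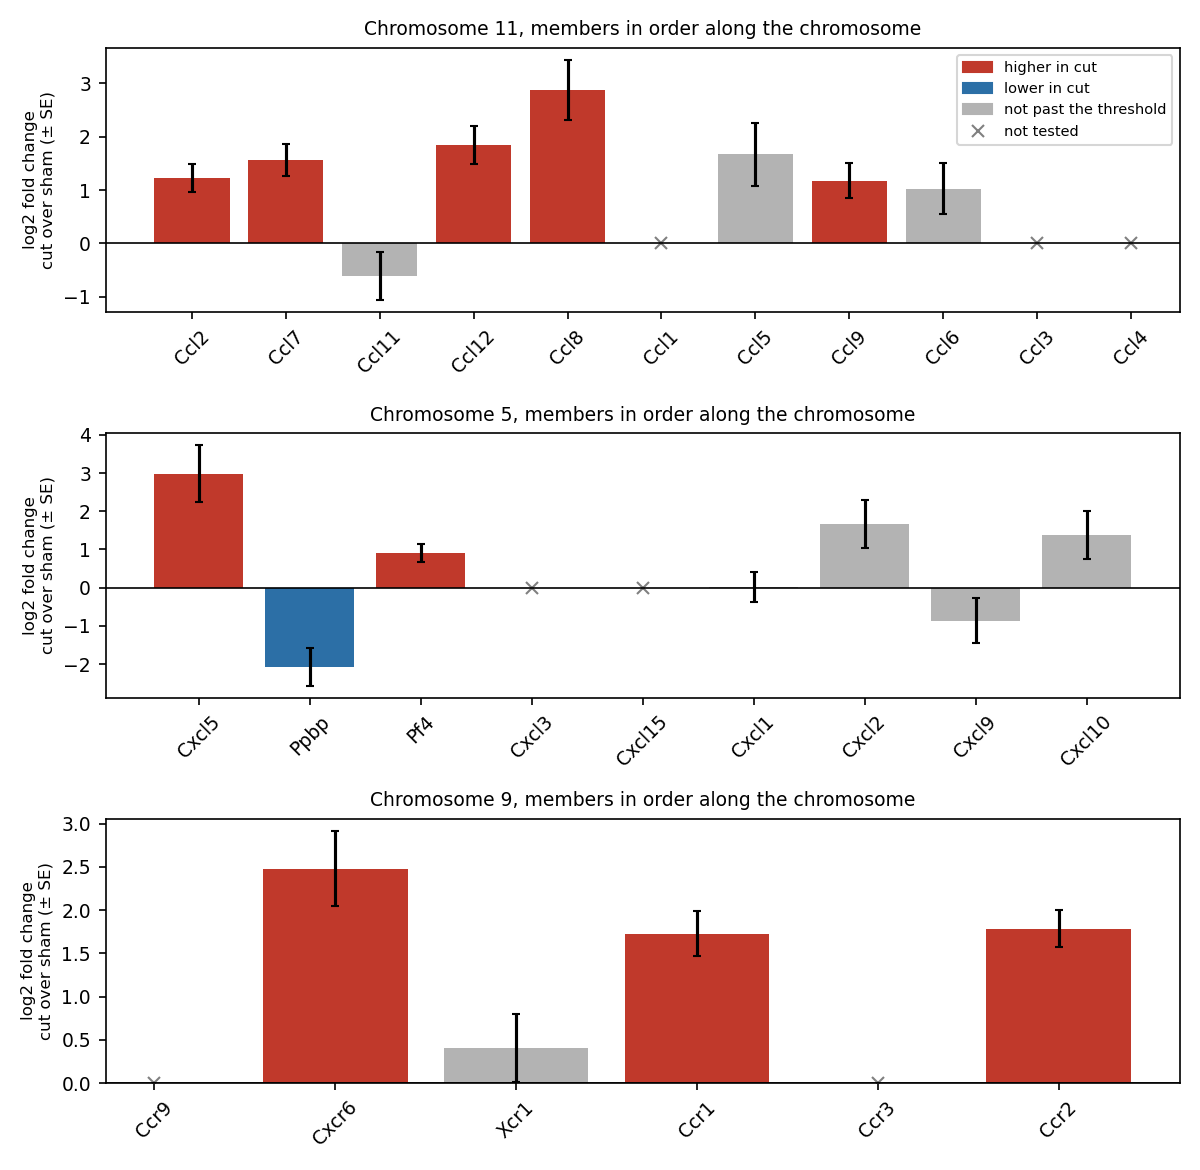
Log2 fold change of cut over sham (bar ± SE) for members that neighbour each other on chromosomes 11, 5 and 9, in their order along the chromosome and not to scale, with crosses for members not tested. On chromosome 11 the grey bar of Ccl11 points down at -0.62 between the red bars of Ccl7 and Ccl12.

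Many members lie side by side in the genome, and neighbours did not always move alike. On chromosome 11, 11 CC ligand genes lie between 82035577 and 83664683, of which 5 were higher, 3 did not pass the test and 3 were not tested. Ccl11 lies between Ccl7 and Ccl12 and has the only negative fold change there. On chromosome 5, Cxcl5, Ppbp and Pf4 are direct neighbours between 90759298 and 90773383, and they were higher, lower and higher. On chromosome 9, Cxcr6, Ccr1 and Ccr2 lie between 123806477 and 124109140 and were all higher, while Xcr1, between Cxcr6 and Ccr1, did not pass the test.

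The ELR ligands of neutrophils were scarce. Cxcl5 had 0.902, 0.506 and 0.537 CPM in cut and 0.163, 0.0757 and 0 CPM in sham, with a fitted log2 fold change of 2.98 ± 0.75 (edgeR adjusted p = 0.0272) that depends on a handful of sham counts. It was not called without cut 1 (2.67, adjusted p = 0.0875), cut 2 (3.14, 0.0522), sham 2 (2.94, 0.103) or sham 3 (2.38, 0.0574). Cxcl1 had 1.22, 1.25 and 0.537 CPM in cut and 1.14, 0.984 and 0.840 CPM in sham, a log2 fold change of 0.02 with a 95% interval of -0.91 to 0.96. Its neighbour Cxcl2, with the NF-κB letters printed above, had 0.516 to 1.11 CPM in cut and 0.0764 to 0.492 CPM in sham, without overlap, at 1.66 ± 0.63 (edgeR adjusted p = 0.0838). Cxcl3 was not tested, with 0.322 to 0.436 CPM in cut and at most 0.0379 CPM in sham.

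Ppbp, the platelet basic protein whose fragments act on neutrophils, had 1.16, 0.945 and 0.671 CPM in cut 1 to 3 and 2.25, 2.69 and 6.76 CPM in sham 1 to 3. It fell by 2.07 ± 0.50 on the log2 scale (edgeR adjusted p = 0.0242), with no overlap between groups and the highest value in sham 3. Blocking on replicate number ended its call (-1.91, adjusted p = 0.0513), as did leaving out cut 1 (-2.26, 0.0623), cut 2 (-2.08, 0.0688) or sham 2 (-2.30, 0.0530). Erythroid markers were also highest in sham 3, summing to 129, 103 and 274 CPM in cut and 191, 391.9 and 593 CPM in sham. Their part in the result was not tested.

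Pf4, platelet factor 4, which mouse macrophages also make, had 15.1, 11.9 and 13.8 CPM in cut and 4.90, 8.37 and 8.32 CPM in sham. It rose by log2 0.92 ± 0.24 (edgeR adjusted p = 0.031), with no overlap between groups. It was not called without cut 1 (0.84, adjusted p = 0.0952), cut 2 (1.01, 0.0524), sham 1 (0.70, 0.0547), sham 2 (1.02, 0.0744) or sham 3 (1.0, 0.0714). The 7 platelet markers summed to 12.3, 13.5 and 6.58 CPM in cut and 7.68, 8.56 and 8.09 CPM in sham, and the platelet glycoprotein Gp9 had at most 0.135 CPM in cut and 0.535 CPM in sham.

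Neutrophil markers were low in both groups. The 11 of them summed to 15.02, 8.47 and 14.7 CPM in cut and 9.93, 5.19 and 8.51 CPM in sham, and the calprotectin gene S100a8 had 0.810 to 1.54 CPM in cut and 0.946 to 1.64 CPM in sham. The defining marker Ly6g had 0 CPM in 2 cut and 2 sham libraries. Csf3r, the G-CSF receptor also found on monocytes, was the 1 of 4 tested that rose.

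The interferon-induced CXCR3 ligands did not pass the test. Cxcl9 had 1.13, 0.979 and 3.36 CPM in cut and 2.0, 2.69 and 5.23 CPM in sham, with a log2 fold change of -0.86 ± 0.59 (edgeR adjusted p = 0.279). It was called lower in a blocked fit on replicate number (-0.95, adjusted p = 0.0456) and without cut 3 (-1.65, 0.0161). Cxcl10 had 0.967 to 1.34 CPM in cut and 0.0757 to 0.687 CPM in sham, with no overlap, at 1.39 ± 0.62 (edgeR adjusted p = 0.126). The Cxcl10 exons overlap Art3 on the other strand.

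The homeostatic CXC ligands held most of the ligand counts. Cxcl12, the stromal ligand of CXCR4 and ACKR3, had 353, 287 and 313 CPM in cut 1 to 3 and 306, 299.7 and 291 CPM in sham 1 to 3. Its log2 fold change was 0.09, with a 95% interval of -0.31 to 0.48, so that a doubling or a halving lies outside the interval. It made up 48.9% to 54.7% of the summed ligand CPM in cut and 60.5% to 71.8% in sham.

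Cxcl14, a ligand made by fibroblasts and epithelium, had 80.4, 88.5 and 81.9 CPM in cut and 24.5, 35.2 and 43.3 CPM in sham, a rise of log2 1.28 ± 0.21 (edgeR adjusted p = 0.00893), and was called under each of the 16 alternatives. Its cut values were close to each other and all above the sham values. Cxcl13, the B cell follicle ligand, had 0.270 to 0.940 CPM in cut and 0.802 to 1.44 CPM in sham, at -0.91 ± 0.49 (edgeR adjusted p = 0.185), and was called only without cut 3 (-1.36, adjusted p = 0.0494).

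Of the 5 tested homeostatic and dual-role CC ligands, Ccl22 was higher and 4 did not pass the test. Ccl21a, the lymphatic ligand of CCR7, had 33.0, 37.1 and 29.3 CPM in cut and 23.0, 28.3 and 28.6 CPM in sham, without overlap. Its log2 fold change of 0.32 ± 0.14 did not pass the threshold (edgeR adjusted p = 0.132) but did without cut 3 (0.40, adjusted p = 0.0391). Near-identical copies of Ccl21a exist in the mouse genome, and the copy Ccl21b was listed with at most 0.0337 CPM, so the split of reads between them is uncertain.

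Ccl25, a gut and thymus ligand, had 1.74, 2.29 and 2.89 CPM in cut and 2.12, 2.27 and 2.44 CPM in sham. Ccl22, a dendritic cell ligand for CCR4, had 0.772 to 1.15 CPM in cut and 0.151 to 0.420 CPM in sham, and rose by log2 1.74 ± 0.44 (edgeR adjusted p = 0.0277). Ccl22 lost its call in the blocked fit (1.76, adjusted p = 0.0543) and without cut 1 (1.80, 0.0727), cut 2 (1.55, 0.0821), sham 1 (1.67, 0.0904) or sham 2 (1.43, 0.0952). Ccl27a, whose exons overlap Il11ra1, and Ccl28 did not pass the test, at -0.68 ± 0.30 and 0.88 ± 0.65 (edgeR adjusted p = 0.125 and 0.314).

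The 2 ligands that are made as transmembrane proteins and shed by ADAM proteases differed. Cxcl16, the CXCR6 ligand and a scavenger of oxidised lipoprotein on macrophages, had 25.2, 29.8 and 24.8 CPM in cut 1 to 3 and 5.80, 5.72 and 4.58 CPM in sham 1 to 3. It rose by log2 2.31 ± 0.16 (edgeR adjusted p = 0.00238), with no overlap, and lies on chromosome 11 at 70454389 to 70459984, where its exons overlap Zmynd15 on the other strand. Cx3cl1, fractalkine, had 7.83, 12.0 and 9.23 CPM in cut and 11.3, 9.54 and 8.32 CPM in sham. Its log2 fold change was 0.00 to 2 decimals, with a 95% interval of -0.51 to 0.50.

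**Figure D4:**
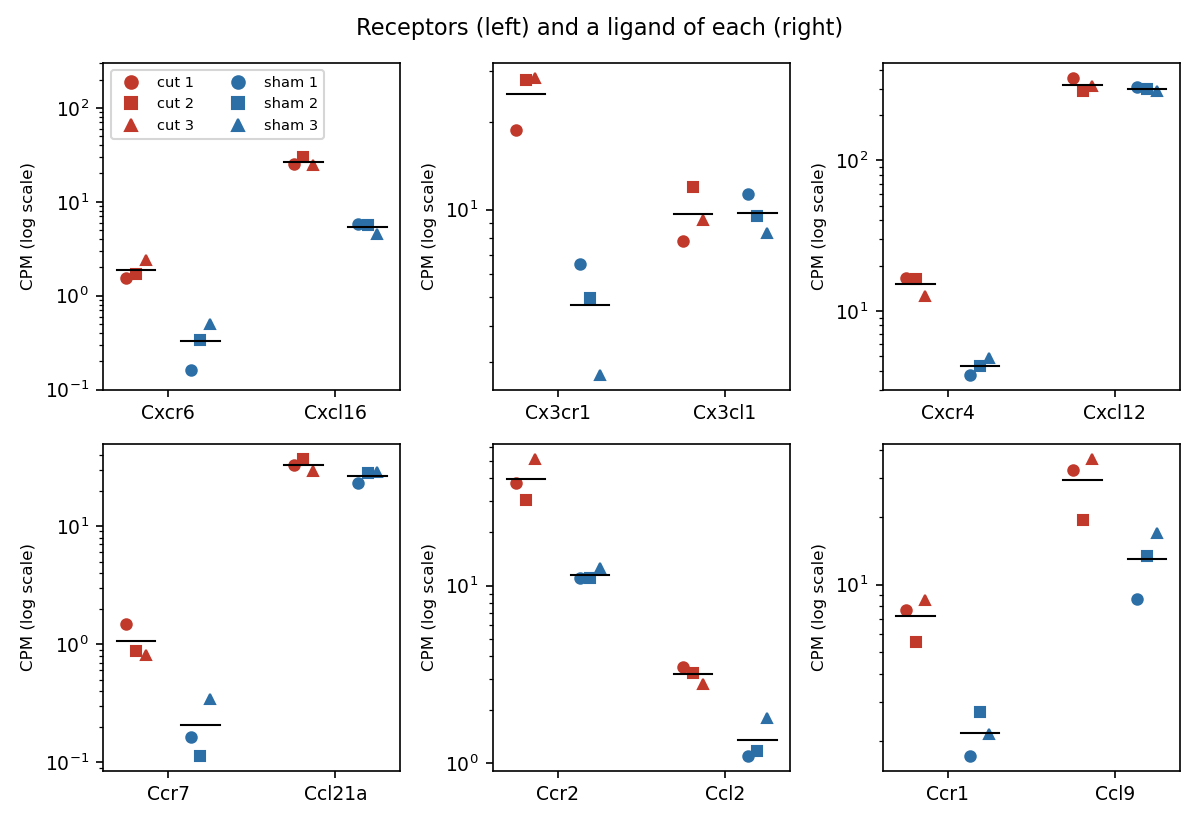
CPM (log scale) of 6 receptors and a ligand of each, with a point per library and a bar at the mean, cut left of sham for each gene. For Cx3cr1 and Cxcr4 the cut points lie above the sham points while those of their ligands Cx3cl1 and Cxcl12 overlap with sham.

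Receptors and their ligands can be set side by side from these values. Cxcr6 and Cxcl16 were both higher, by log2 2.48 and 2.31. Cx3cr1 was higher by 2.40 where the interval of Cx3cl1 ran from -0.51 to 0.50, and Cxcr4 by 1.81 where that of Cxcl12 ran from -0.31 to 0.48. Ccr2 was higher by 1.79, with its ligands Ccl2, Ccl7 and Ccl12 higher by 1.22 to 1.84. Ccr1 was higher by 1.73, with Ccl9 higher by 1.18. The difference between a receptor and its ligand was not itself tested.

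Levels scaled by gene length and library total (FPKM, as deposited) allow genes to be compared with each other. Ccl8 had the highest FPKM level of all members in cut tendon, at 64.1 ± 11.0 (SD, n = 3), and ranked 9 in sham, at 8.60 ± 5.86. Cxcl12 ranked 2 in cut at 44.7 ± 8.07 FPKM and 1 in sham at 41.7 ± 2.31, and Ccl21a ranked 3 in cut at 38.3 ± 5.35 and 2 in sham at 30.6 ± 3.09. The cut ranges of Ccl8, 56.6 to 76.7 FPKM, and Cxcl12, 38.7 to 53.9 FPKM, did not overlap, whereas those of Cxcl12 and Ccl21a did. Among receptors Ackr3 ranked 1 in both groups, at 23.2 ± 8.57 FPKM in cut and 22.4 ± 3.28 in sham. Ccr2 followed in cut, at 10.02 ± 2.52 FPKM against 2.90 ± 0.121 in sham, where Ackr1 came next after Ackr3.

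Of the 21 members not tested, Ccl1, Ccl20 and Cxcl15 had no count in any library. A further 18 had some counts, and 18 of the 21 stayed below 0.5 CPM in every library. Ccr3, Ccr9, Ccl4 and Cxcl3 were higher in every cut than in every sham library, and Ccr8 and Cxcr5 lower, without a test. Xcl1, a ligand of activated T cells, had 0.0675 to 0.268 CPM in cut and 0, 0 and 0.153 CPM in sham.

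Genes that act downstream of the receptors were counted from a list. Of 47 tested genes of chemokine receptor signalling, 25 were higher, 3 lower and 19 not past the test, where 20.4% of all tested genes were higher and 12.3% lower. Their median log2 fold change was 0.68, against -0.02 over all tested genes. The regulators of G protein signalling led, with Rgs1 at 2.55 ± 0.38, Rgs2 at 2.37 ± 0.19 and Rgs10 at 2.23 ± 0.26 (edgeR adjusted p = 0.00681, 0.00272 and 0.00437). Rgs2 had 82.3, 112 and 95.2 CPM in cut 1 to 3 and 22.3, 17.1 and 16.6 CPM in sham 1 to 3.

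The inhibitory G protein subunit Gnai1 fell by 2.09 ± 0.21, the Rap1 activator Rasgrp2 by 1.89 ± 0.27 and the Rac activator Tiam1 by 0.59 ± 0.12 on the log2 scale (edgeR adjusted p = 0.00355, 0.00611 and 0.016). Gnai1 had 14.6, 10.1 and 11.9 CPM in cut and 40.3, 56.3 and 59.6 CPM in sham. The inhibitory subunits Gnai2 and Gnai3, in contrast, were higher, by log2 0.84 ± 0.18 and 0.88 ± 0.18.

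Of 18 tested genes that cut, hold or resemble chemokines, 10 were higher, 1 lower and 7 not past the test, beside the same 20.4% and 12.3% of all tested genes, with a median of 1.03. The list summed to 5.21, 6.23 and 3.27 times the sham mean in cut 1 to 3. The tendon markers summed to 7.39, 10.3 and 4.14 times. A few abundant genes held most of both sums. In cut 1, Mmp2 and Mmp14 had 3106 and 1934 of 6795 CPM, and Col1a1 and Col1a2 had 64594 and 35737 of 113797 CPM. Of the 10 tendon markers 5 were higher, 1 was lower and 4 did not pass the test. The part of the tendon markers in the result was not tested. The macrophage elastase Mmp12 rose by log2 6.12 ± 0.74, the membrane metalloproteinase Mmp14 by 4.25 ± 0.43 and the gelatinase Mmp2 by 3.58 ± 0.42 (edgeR adjusted p = 0.00454, 0.00348 and 0.0044). Mmp12 had 46.5, 12.6 and 52.7 CPM in the cut libraries, with cut 2 lowest, and 0.531, 0.227 and 0.840 CPM in sham 1 to 3. Rarres2, the chemoattractant chemerin, fell by 1.04 ± 0.13 on the log2 scale (edgeR adjusted p = 0.0048). All 8 adipocyte markers fell too, with a sum of 312 to 647 CPM in cut and 1994 to 2930 CPM in sham, and their part in the result was not tested. The CXCL16 sheddase Adam10 stood at 0.19 ± 0.14 and the chemokine-trimming peptidase Dpp4 at -0.65 ± 0.26 (edgeR adjusted p = 0.293 and 0.0952). Another ADAM protease of the list, Adam17, was higher, by log2 0.99 ± 0.13 (edgeR adjusted p = 0.00533).

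**Figure D5:**
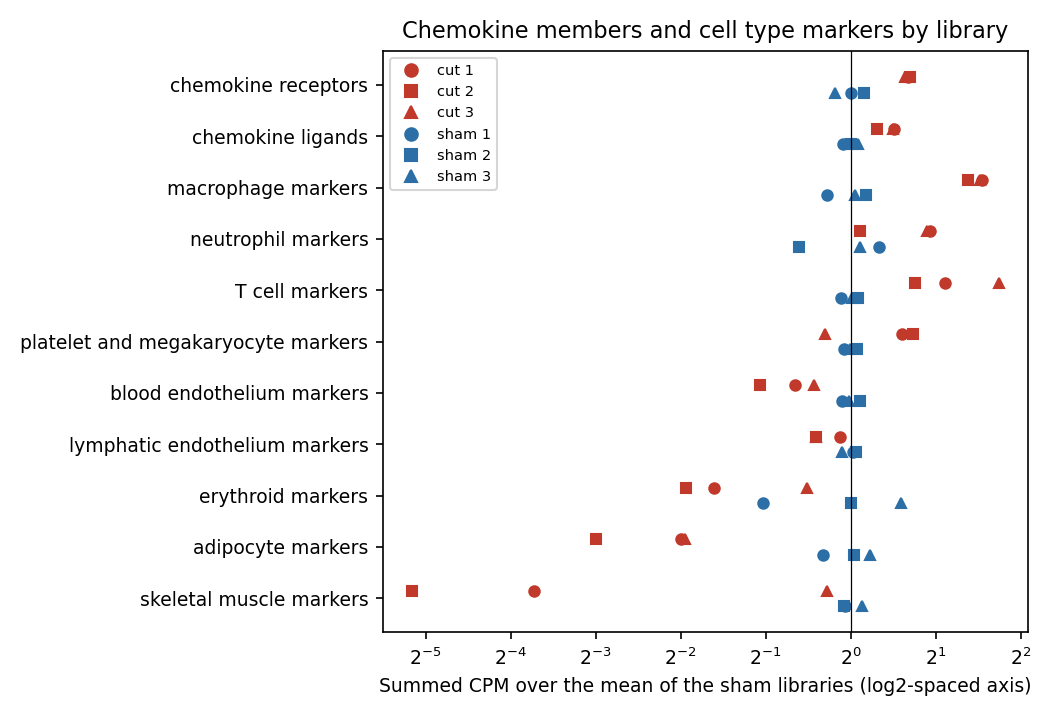
Summed CPM of the chemokine receptors, the ligands and cell type marker lists, each divided by the mean of the 3 sham libraries (log2-spaced axis), with a point per library. Receptors lie at 1.56 to 1.62 and macrophage markers at 2.6 to 2.92 in all 3 cut libraries, while skeletal muscle markers lie at 0.0755, 0.028 and 0.826.

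The receptor sum was 192, 194 and 187 CPM in cut 1 to 3 and 121, 134 and 105 CPM in sham 1 to 3, and without Ackr3 it was 133, 125 and 155 CPM in cut and 67.6, 76.3 and 60.3 CPM in sham. The ligand sum was 646, 563 and 641 CPM in cut and 426, 453 and 481 CPM in sham. Relative to the sham mean, the receptor sum was 1.60, 1.62 and 1.56 and the macrophage marker sum 2.92, 2.6 and 2.88 in cut 1 to 3. The part of macrophage number in the higher receptor levels was not tested.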

How the data were processed

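RNA from 6 libraries was isolated with the mirVana kit and made into TruSeq Stranded Total RNA libraries that deplete ribosomal RNA (Ribo-Zero Gold), according to the labels' protocols. The submitters' processing notes name Trimmomatic, HISAT2 and the GRCm38.p6 build. How reads were counted, and with which strand setting, is not given in the sources used here; genes that overlap on opposite strands may share reads. The deposited counts are whole and not normalized. The FPKM deposited by the authors are the same counts over gene length and library total: the length they imply was a whole number to within 0.01 bases in 100% of the 15164 genes that could be checked.

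Counts were fitted in R 4.3.3 with edgeR 4.0.16 (filterByExpr, TMM, quasi-likelihood test, Benjamini-Hochberg over 14561 genes, threshold 0.05). The SE of a log2 fold change is its size divided by the root of F, and 95% intervals use the same degrees of freedom. Positions and promoters came from RefSeq and exon overlaps from GENCODE, all on GRCm38, for 62 of 62 members (promoters 48). In the annotation 2 members share exon sequence with another gene on the same strand and 9 on the other. Promoters were aligned with Biopython 1.88. No pair of libraries was a duplicate, the closest differing by a chi-square of 14.96 per gene. Same-numbered cut and sham libraries deviated together (correlations 0.26, 0.13 and 0.41, all over 0.1). Differently numbered pairs ran from -0.33 to 0.24, and cut 2 correlated better with sham 1 (0.24) than with sham 2. The labels name no pairs, and these correlations do not settle whether the numbers pair the libraries. The main fit was therefore unpaired, with a replicate block as an alternative. The fit was tested on simulated data. Alternatives were DESeq2 1.42.0 size factors and Wald test, upper quartile scaling, limma-voom (limma 3.58.1), other filters, limma on log2(FPKM + 1) and log2(FPKM + 0.1), a replicate block, muscle content as a covariate, and each library left out. A left-out fit assumes the remaining samples vary alike.

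Members past the threshold were named, except 1 that is not reported here but stays in counts and sums over all members or receptors, with full values for those of at least 5 CPM and the 2 most abundant of each role, and other members of at least 5 CPM with values. Of the signalling and processing lists the 3 highest and 3 lowest called genes were named. Ccr3, Ccr8, Cxcr2, Xcr1, Ccl5, Ccl24, Cxcl2, Cxcl3, Cxcl10, Cxcl13, Ccrl2, Gnai2, Gnai3, Adam10, Adam17, Dpp4 and the other low members were named after their values were seen. The members and lists were chosen with earlier results of these data known. Intervals cover the spread between libraries, and 1 count sets the floor of low genes.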

Additional observations from a re-analysis of the deposited data

How the results depend on the processing

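The cause of each shift below was not tested. Under 16 alternatives no member called in all 6 libraries reversed, and Ccr1, Ccr2, Cx3cr1, Cxcr4, Cxcl14 and Cxcl16 were called under every one. Leaving out a library in turn gave 8 to 20 members higher and 0 to 5 lower, 3 to 11 ligands higher and 0 to 3 lower, and 5 to 9 receptors higher and 0 to 2 lower. It gave 16 to 27 signalling genes higher and 2 to 6 lower, 5 to 13 processing genes higher and 1 to 2 lower, and 1091 to 4212 of all genes higher and 436 to 4392 lower. Leaving out sham 2 cost 13 of the 20 member calls and cut 1 cost 9. Calls over all genes fell as well in these fits. They were 1091 higher and 436 lower without sham 2, and 1585 and 688 without cut 1, against 2968 and 1789 with all 6 libraries. With the muscle covariate 6 ligands were higher and 0 lower, 2 receptors were lower, 8 member calls were lost (Ccl2, Ccl7, Ccl12, Ccl22, Ccr7, Cxcl5, Pf4 and Ppbp), calls of Ccl5, Ccl6 and Ackr3 were gained, and 1590 of all genes were higher and 757 lower. DESeq2's Wald test called 23 members higher and 2 lower, and 3402 of all genes higher and 2753 lower. The replicate block gave 17 members higher and 2 lower, 9 ligands and 8 receptors higher, 26 signalling genes higher and 4 lower, 9 processing genes higher and 3161 of all genes higher and 2522 lower. Beyond the lost calls of Ccl22 and Ppbp and the gained call of Cxcl9, the block changed no other member's call.

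Members whose value changed sign were not called in edgeR's test on all 6 libraries, and several of the values were near 0. Ackr3 was -0.0241 in limma-voom, -0.0170 on log2(FPKM + 1), -0.0210 on log2(FPKM + 0.1), -0.0221 with the block, and -0.73 with the muscle covariate, where it was called. Ccl25 was -0.0176 in limma-voom, -0.00522 without a filter, -0.00166 and -0.00722 on log2(FPKM + 1) and log2(FPKM + 0.1), and -0.00593 with the block. Cxcl1 was -0.0630 in limma-voom, -0.00375 without a filter and on log2(FPKM + 1), -0.0487 on log2(FPKM + 0.1), -0.0396 with the block and -0.87 with the muscle covariate. Cx3cl1 was 0.0454 with upper quartile scaling. Values further from 0 changed sign with the muscle covariate. It gave 0.17 for Ccl11, 0.35 for Ccl24, 0.47 for Ccrl2 and 0.13 for Cxcl9. Without the covariate these were -0.62, -0.47, -0.75 and -0.86. With a library left out, Ackr3 ran from -0.18 to 0.30, Ccl25 from -0.18 to 0.19, Cx3cl1 from -0.19 to 0.13, Cxcl1 from -0.16 to 0.32 and Cxcr2 from -0.19 to 0.80. Members below 1 CPM rest on few counts in each library.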

Other observations

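Within the macrophage marker list Cd163, a scavenger receptor of resident macrophages, was the member that did not rise, at 29.1, 7.26 and 25.7 CPM in cut 1 to 3 and 35.9, 56.5 and 55.8 CPM in sham 1 to 3 (log2 -1.26 ± 0.50, edgeR adjusted p = 0.0947). Adgre1, the F4/80 antigen, had 58.0, 54.7 and 75.7 CPM in cut and 13.7, 18.6 and 15.4 CPM in sham, and was higher. Of 7 dendritic cell markers 2 were higher, 1 lower and 4 not past the test. Itgax had 29.2, 9.92 and 21.2 CPM in cut and 2.17, 2.61 and 4.01 CPM in sham, and Zbtb46 had 18.6, 15.5 and 17.2 CPM in cut and 28.8, 25.6 and 29.1 CPM in sham. All 8 adipocyte markers fell in edgeR's test, with a list sum of 312 to 647 CPM in cut against 1994 to 2930 CPM in sham.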
